A study of Mus musculus with 18 samples.

Results

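The RNA-binding splicing regulators of glia described here are 10 genes: Qk, Mbnl1, Mbnl2, Celf2, Rbfox2, Ptbp1, Ptbp2, Hnrnpf, Hnrnph1 and Hnrnpa2b1. They were taken by gene name from a table of transcript abundance (TPM, reads per transcript length scaled so that each library sums to 1000000), summed over the transcripts of each gene and also read transcript by transcript. All 10 were present, with 88 of the 93666 transcripts and among 38046 genes. Total RNA was sequenced in 18 libraries. The cells were oligodendrocyte progenitor cells (OPCs) of the mouse, which divide and can mature into the oligodendrocytes that make myelin. These were clonal lines obtained from primary neural stem cells. The control lines are D7, D3 and E8, the Thap1 null lines are 3F, D6 and 7F, and each was sampled once at 3 stages: as OPCs at day 0, in OPC growth medium with PDGF-AA, and after 2 days (DIV2) and 4 days (DIV4) in oligodendrocyte differentiation medium with thyroid hormone (T3). Thap1 encodes a DNA-binding protein of the zinc-finger class whose part in oligodendrocyte maturation is the subject of the series. The labels do not say how the null allele was made. Each group of genotype and stage held 3 libraries, and a replicate is 1 clone, so the spread given is that between clonal lines.

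Splicing regulators bind short motifs in pre-mRNA and raise or lower the use of nearby exons. QKI, the product of Qk, is needed for myelination, and the quaking mouse is named for its lack of myelin. Its isoforms share the RNA-binding domain and differ in their coding ends, which set how much of the protein is kept in the nucleus. MBNL1 and MBNL2 are zinc-finger proteins that promote mature splicing patterns and are sequestered in myotonic dystrophy, CELF2 acts on many of the same exons, and RBFOX2 binds introns next to regulated exons. PTBP1 represses many exons that neurons use, and its paralogue PTBP2 is best known from maturing neurons. hnRNP F and hnRNP H1 bind runs of G near the exons they regulate. hnRNP A2/B1 is known in oligodendrocytes for carrying Mbp mRNA to the processes.

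The alternative coding ends of Qk and the alternative exon of Hnrnpa2b1 are printed first because the transcript shares given further on turn on them. All were read 5′ to 3′ on the minus strand from GENCODE M21 transcripts on GRCm38, and capitals mark the part in which the transcripts differ. For Qk the lower-case bases are the last 30 bases of the last coding exon that the transcripts share (chr17:10216160-10216459). The coding end of Qk-201 lies at chr17:10215434-10215474 and gives 325 codons, the length of the QKI-7 isoform. That of Qk-202 lies at chr17:10214172-10214194 and gives 319 codons, the length of QKI-6. Qk-204, which gives 341 codons and has the length of QKI-5, is shown for comparison and has no value in the table. 
Qk-201: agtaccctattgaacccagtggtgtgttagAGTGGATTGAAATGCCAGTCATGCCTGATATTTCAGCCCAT
Qk-202: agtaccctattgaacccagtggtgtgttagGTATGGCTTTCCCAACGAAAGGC
Qk-204: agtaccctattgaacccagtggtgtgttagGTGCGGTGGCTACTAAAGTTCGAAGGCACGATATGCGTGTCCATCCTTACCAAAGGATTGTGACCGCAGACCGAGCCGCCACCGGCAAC
For Hnrnpa2b1, the exon of 36 bases at chr6:51467391-51467426 lies just after the start codon and is present in the M21 model of Hnrnpa2b1-203 (353 codons, the B1 form) and absent from those of Hnrnpa2b1-202 (341 codons, the A2 form) and Hnrnpa2b1-201 (301 codons).
Hnrnpa2b1-203: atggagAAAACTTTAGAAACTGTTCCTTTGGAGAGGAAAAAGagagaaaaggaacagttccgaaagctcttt
The authors' transcript models were not all those of M21. Qk-201 has 6718 bases in the table and 6737 in M21. Qk-202 has 4658 bases and is typed protein-coding in the table, and has 5832 bases and is typed nonsense-mediated decay in M21. Hnrnpa2b1-203 has 4086 bases in the table and 1728 in M21. Which coding end the authors' Qk-202 model carried, and whether their Hnrnpa2b1-203 model carried the exon of 36 bases, is therefore not known from the table, and the transcripts are named below by their identifiers' M21 names only.

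The 18 libraries differed in composition. In the control OPC libraries 64.8% to 88% of all TPM lay in 3 noncoding features, while the share was 34.8% for clone D6 of the null OPCs and 0.359% to 3.17% in each of the remaining 14. Gene levels are therefore given as rescaled TPM, divided by a median-of-ratios factor (0.117 to 0.316 in control OPCs, 0.722 to 1.97 elsewhere), so that a change is relative to the typical gene. Depth is unknown because TPM does not keep it. Control D3 OPCs stood apart, with a summed level of 6 cycling-cell markers of 55.8 rescaled TPM against 472 to 585 in the other OPC libraries and with Mbp at 89.2 against 7.39 in D7 and 4.8 in E8. Control D7 at DIV4 stood apart with Mbp at 4647 (960 and 680 in the other control clones) and the astrocyte gene Gfap at 0.171 (106 and 243). As a check of the labels, the coding transcript Thap1-201 was at 1.81 to 4.35 rescaled TPM in the 9 control libraries and at 0.191 to 0.761 in the 9 null libraries; on deposited TPM control E8 OPCs (0.404) lay below the null OPCs (0.549 to 0.649). Total Thap1 was not lower in null clones (10.1 to 12 against 5.1 to 8.52 in OPCs), because the retained-intron transcript Thap1-202 was at 4.8 to 11.2 in null and 0.738 to 3.99 in control libraries.

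Averaged over the 18 libraries, Qk was the most abundant of the 10 genes (192 rescaled TPM), followed by Hnrnph1 (88.3), Hnrnpf (82.6) and Hnrnpa2b1 (41). Mbnl2 (22.4), Ptbp1 (22.2) and Ptbp2 (19.1) lay close together, and Mbnl1 (9.99), Celf2 (6.56) and Rbfox2 (2.64) were the lowest. Hnrnph1 and Hnrnpf overlapped (46 to 148 and 60.2 to 124), and so did Mbnl2 (3.67 to 42), Ptbp1 (12.1 to 40.1) and Ptbp2 (11.1 to 27). The plot of the members by library shows each of these values.

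**Figure D1:**
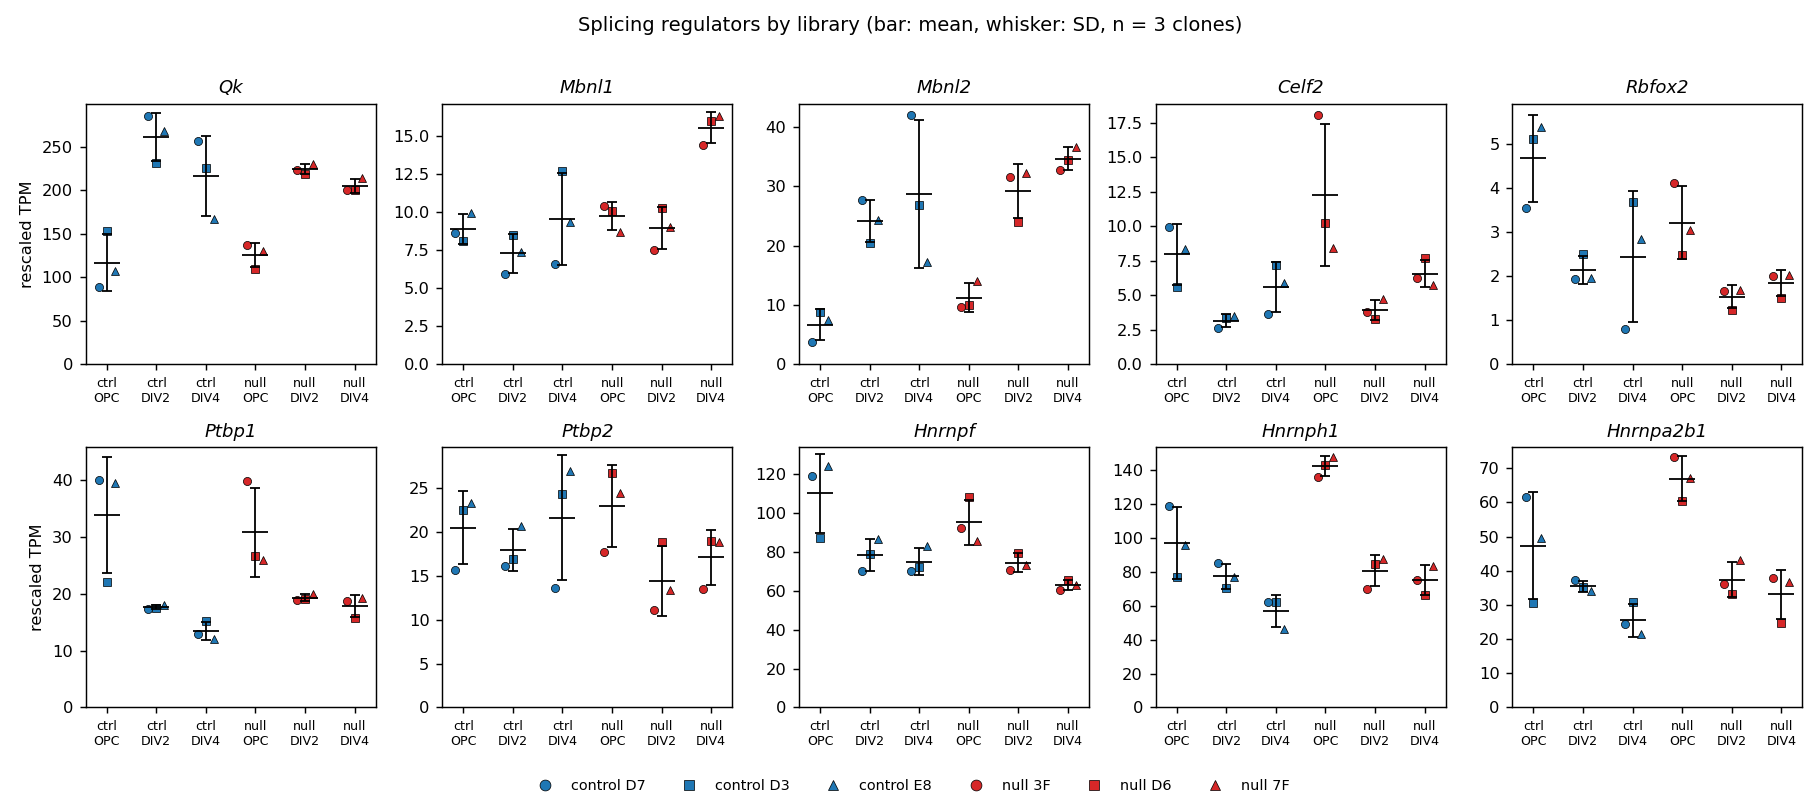
Rescaled TPM (vertical axis of each panel) of the 10 splicing regulators in 18 libraries, grouped by genotype and stage, with 1 symbol per clone and the mean ± SD of 3 clones. Qk and Mbnl2 lie higher at DIV2 and DIV4 than in OPCs in both genotypes, and Ptbp1 lies lower.

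Differentiation was examined first, by comparing DIV2 and DIV4 with OPCs within each genotype. Qk and Mbnl2 rose in both genotypes and at both times, while Ptbp1 fell relative to the typical gene in all 4 of these comparisons. A gene was called when its adjusted p was under 0.05 with limma and Benjamini-Hochberg adjustment over 12894 genes. In control clones 6 of the 10 members were called at DIV2 (2 higher, 4 lower), where 34.1% of all genes were called, and 7 at DIV4 (2 higher, 5 lower), where 31.6% were. In null clones 6 were called at DIV2 (2 higher, 4 lower) against 27.4% of all genes, and 8 at DIV4 (3 higher, 5 lower) against 32.8%. The median change of the members was -0.33 and -0.49 in control clones and -0.63 and -0.57 in null clones, with the median of all genes between -0.07 and 0.02.

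Between DIV2 and DIV4 none of the 10 was called in control clones, where 0.24% of all genes were, and none in null clones, where 2.18% were. At an unadjusted p under 0.05 there were 2 members in control clones (Celf2 and Hnrnph1) and 2 in null clones (Mbnl1 and Celf2). The share of all genes under this unadjusted threshold was not counted.

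The falls in control clones depend on the scale, because the control OPC libraries carry the noncoding load. On TPM as deposited, the median of all genes was higher by 1.96 (log2) at DIV2 and 2.02 at DIV4 than in control OPCs, and every member that fell on rescaled TPM was higher instead. When libraries were scaled to their protein-coding total, the median gene moved by 0.56 and 0.62. The members called were then 2 at DIV2 and 4 at DIV4, all of them higher, and no fall in control clones was called. Rises of Qk and Mbnl2 passed the threshold on each of these scales, in both genotypes. In null clones, where the median gene moved by 0.32 and 0.37 on deposited TPM, no called change of a member changed sign under any of the alternatives run. Of the 9 falls called there, that of Celf2 at DIV2 was still called with protein-coding scaling and none on deposited TPM. In a fit on only the 6 libraries compared, no member was called in control clones at DIV4, while 4 were at DIV2 and 7 at each time in null clones.

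**Figure D2:**
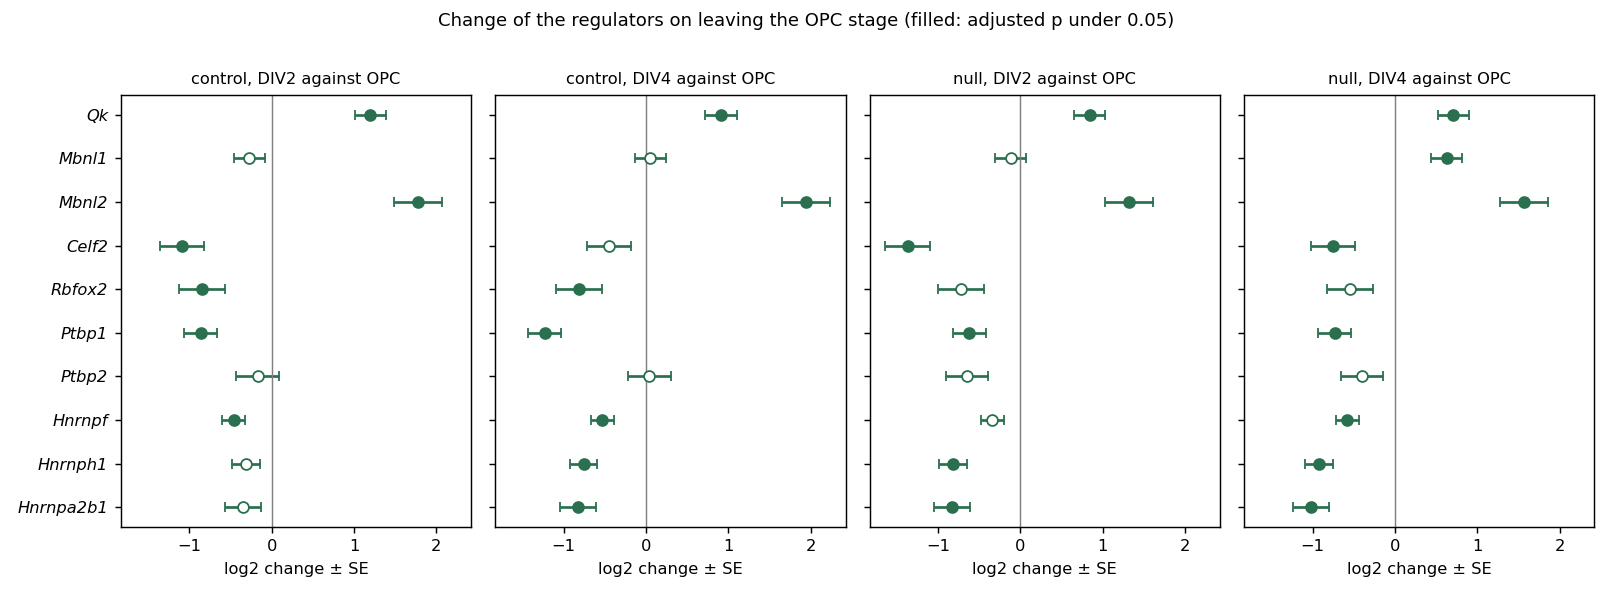
Log2 change ± SE (horizontal axis) of each regulator at DIV2 and DIV4 against OPCs, in control and Thap1 null clones, on rescaled TPM; filled symbols have an adjusted p under 0.05 (limma). Qk and Mbnl2 lie right of 0 in every panel and Ptbp1 left of 0; the falls in control clones are positive on deposited TPM.

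Markers of cell state moved with stage in the same libraries. The summed level of 8 oligodendrocyte markers was 119 to 751 rescaled TPM in control OPCs and 3632 to 6260 at DIV2, and 329 to 491 and 3120 to 3585 in null clones. Cycling-cell markers summed to 55.8 to 585 in control OPCs and 36.5 to 51.9 at DIV2, and to 472 to 572 and 50.9 to 76.2 in null clones. The 6 OPC markers summed to 624 to 924 in control OPCs and to 286 to 486 at DIV2, and to 434 to 539 and 209 to 282 in null clones. The 6 astrocyte markers summed to 0.622 to 13.7 in control OPCs and 2.18 to 288 at DIV4, and to 1.22 to 4.52 and 90.8 to 145 in null clones. The 6 neuronal markers, of which 4 stayed under 1 in every DIV4 library, summed to 15.6 to 31.7 in control OPCs and 46.6 to 87.6 at DIV4, and to 8.76 to 14.8 and 43.8 to 74.6 in null clones. Microglial and mesenchymal markers summed to at most 4.65 and 1.06. The part of these shifts in the members' changes was not tested. In bulk RNA, fewer cells of a type and less RNA per cell cannot be told apart.

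Qk (ENSMUSG00000062078, chr17:10202601-10319854, minus strand, GRCm38) encodes the RNA-binding protein quaking. It stood at 89.3, 153 and 107 rescaled TPM in control OPCs D7, D3 and E8, at 286, 232 and 268 at DIV2, and at 257, 226 and 167 at DIV4. The null clones (3F, D6, 7F) had 137, 110 and 130 as OPCs, 224, 219 and 231 at DIV2, and 200, 200 and 214 at DIV4. Neither genotype's OPC values overlapped its later values, and the level rose in all 6 clones taken singly. The rise was 1.20 ± 0.19 (log2 ± SE, adjusted p = 0.000336, limma) at DIV2 and 0.91 (adjusted p = 0.0027) at DIV4 in control clones. In null clones it was 0.84 (adjusted p = 0.00426) and 0.71 (adjusted p = 0.00964). Control D3 OPCs, the library low in cycling markers, had the highest Qk of the OPC libraries, and without it the control rises were 1.41 and 1.12. The control rise at DIV4 was not called without clone D7 (0.60, adjusted p = 0.0508) or in a fit on only the 6 libraries compared (adjusted p = 0.133). The null rise was not called at DIV2 without D6 or 7F (adjusted p = 0.0629 and 0.0547), nor at DIV4 without any 1 null clone (adjusted p from 0.05 to 0.107).

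The transcripts of Qk did not rise alike. Qk-201 held 46.7%, 55.5% and 46.4% of the gene's TPM in control OPCs D7, D3 and E8, then 75%, 75.6% and 74.8% at DIV2 and 79.5%, 74.3% and 73.1% at DIV4. In null clones 3F, D6 and 7F it held 51.3%, 54.3% and 56.3% in OPCs, 74.5%, 73.1% and 74.3% at DIV2, and 72.4%, 74.1% and 72.2% at DIV4. The 6 OPC libraries were thus all below the 12 later libraries, with no overlap. A share within a gene does not depend on the scaling of the library.

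Transcript shares were tested with limma in percentage points, over 17624 transcripts. Qk-201 gained 25.6 ± 3.14 points (SE) at DIV2 (adjusted p = 0.000179) and 26.1 at DIV4 (adjusted p = 0.000204) in control clones. The gains in null clones were 20 points (adjusted p = 0.00587) and 18.9 points (adjusted p = 0.00542). The exact two-sided permutation test gave p = 0.1 in each of these 4 comparisons, the smallest that 3 against 3 allow. Qk-202 lost 26.3 and 26.9 points in control clones and 20 and 19.1 in null clones. The change of shares went with a rise of Qk-201 from 41.7 to 85 rescaled TPM in control OPCs to 122 to 214 later, and from 59.5 to 73.1 to 144 to 172 in null clones. Qk-202 stayed between 42.7 and 68.3 rescaled TPM in all 18 libraries. The third transcript of the table is a short model of 285 bases that M21 does not hold. The table thus holds 2 of the 6 Qk transcripts of M21, and the shares are those between the listed models. In M21 the last exon of Qk-202 (chr17:10206551-10209631) lies within that of the unlisted Qk-204 (chr17:10202601-10209631). How reads from unlisted transcripts were assigned is not given in the sources used here, so the levels and shares of both are uncertain to that extent.

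Qk shares were also read in libraries without the noncoding load. Null clones 3F and 7F had 0.789% and 1.06% of their OPC TPM in the 3 noncoding features, and their Qk-201 share went from 51.3% to 74.5% and from 56.3% to 74.3% at DIV2. The part of the load in the Qk shares was not tested. Without control D3 OPCs the control gains were 28.6 and 29.1 points. The null gains were not called when any 1 null clone was left out (adjusted p from 0.097 to 0.183). In fits on only the 6 libraries compared, the adjusted p of the Qk-201 gains was 0.0554 and 0.127 in control clones and 0.0543 and 0.0418 in null clones.

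**Figure D3:**
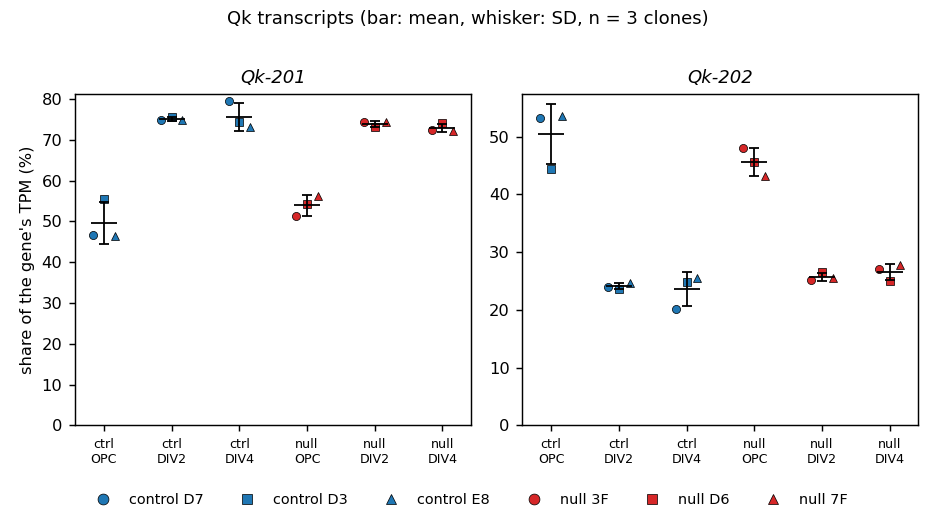
Share of the gene's TPM in percent (vertical axis) held by Qk-201 (left) and Qk-202 (right), with 1 symbol per clone and the mean ± SD of 3 clones. The 6 OPC libraries have Qk-201 between 46.4% and 56.3%, and the 12 later libraries lie between 72.2% and 79.5%.

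Mbnl2 (chr14:120275669-120431697, plus strand) had the largest rise of the 10 members in all 4 stage comparisons. Its level was 3.67, 8.74 and 7.48 rescaled TPM in control OPCs, 27.7, 20.5 and 24.3 at DIV2, and 42, 26.9 and 17.2 at DIV4 (clones D7, D3 and E8). In null clones 3F, D6 and 7F it was 9.56, 9.96 and 14 in OPCs, 31.6, 24 and 32.2 at DIV2, and 32.8, 34.4 and 36.7 at DIV4. OPC values lay below the later values of the same genotype with no overlap. The log2 rise in control clones was 1.78 ± 0.29 (adjusted p = 0.000477, limma) and 1.94 (adjusted p = 0.00033). It was 1.32 (adjusted p = 0.00414) and 1.57 (adjusted p = 0.000989) in null clones. The control rise at DIV4 was not called with only the 6 libraries compared (adjusted p = 0.0823), and the null rise at DIV2 was not called without clone 3F (1.17, adjusted p = 0.0804). The noncoding gene Gm26679, which overlaps Mbnl2 on the other strand, was at most at 0.878 rescaled TPM.

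Mbnl1 (chr3:60472830-60629750, plus strand) behaved otherwise. It was at 8.64, 8.08 and 9.97 rescaled TPM in control OPCs (D7, D3, E8), 5.94, 8.52 and 7.36 at DIV2, and 6.61, 12.7 and 9.33 at DIV4, with overlap between stages. Null clones (3F, D6, 7F) had 10.4, 10.1 and 8.67 in OPCs, 7.51, 10.3 and 9.03 at DIV2, and 14.4, 16 and 16.3 at DIV4. All 3 null DIV4 libraries were above every other library of the 18. In null clones Mbnl1 rose by 0.63 at DIV4 against OPCs (adjusted p = 0.018, limma), a call lost without any 1 null clone (adjusted p from 0.0532 to 0.19). The null difference between DIV4 and DIV2 was 0.75 ± 0.19 with an adjusted p of 0.0521, and with the clone as a replicate block its adjusted p was 0.0328. In control clones the change at DIV4 was 0.05 (adjusted p = 0.854), but the interaction, the null change minus the control change from OPC to DIV4, was 0.57 ± 0.26 and not called (adjusted p = 0.243).

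Celf2 (chr2:6539694-7509563, minus strand) was at 9.94, 5.59 and 8.34 rescaled TPM in control OPCs D7, D3 and E8, at 2.59, 3.34 and 3.49 at DIV2 and at 3.64, 7.2 and 5.9 at DIV4. In null clones the values were 18.1, 10.2 and 8.41 in OPCs, 3.78, 3.27 and 4.72 at DIV2, and 6.23, 7.66 and 5.76 at DIV4. All 6 DIV2 libraries were below all 6 OPC libraries. Celf2 fell at DIV2 by 1.09 ± 0.27 in control clones (adjusted p = 0.00637, limma) and by 1.37 in null clones (adjusted p = 0.00187). The control fall was a rise of 1.10 on deposited TPM, and it was not called without clone D7 (-0.83, adjusted p = 0.059) or on protein-coding scaling (-0.44, adjusted p = 0.254). At DIV4 the change was -0.45 in control clones (adjusted p = 0.213) and -0.75 in null clones (adjusted p = 0.0441). That last call was lost with the clone as a replicate block (adjusted p = 0.0671), without control E8 (adjusted p = 0.0696), without null 3F (-0.42, adjusted p = 0.361), and without D6 or 7F (adjusted p = 0.0865 and 0.0849). Of its 31-base words, 7.24% also occur in transcripts of other genes, read on either strand.

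Rbfox2 (chr15:77078990-77307004, minus strand) was low throughout. It stood at 3.54, 5.1 and 5.38 rescaled TPM in control OPCs, 1.94, 2.5 and 1.95 at DIV2, and 0.792, 3.69 and 2.83 at DIV4. Null clones had 4.11, 2.48 and 3.05 in OPCs, 1.66, 1.23 and 1.69 at DIV2, and 2, 1.51 and 2.02 at DIV4. OPC and DIV2 values did not overlap within a genotype, and the control DIV4 value of D3 (3.69) reached into the OPC range. In control clones it fell by 0.85 ± 0.28 at DIV2 (adjusted p = 0.0303, limma) and by 0.82 at DIV4 (adjusted p = 0.0378), both rises on deposited TPM (1.08 and 1.16). Without the D7 DIV4 library the latter was -0.41 (adjusted p = 0.147), without the D3 OPC library the falls were -0.79 and -0.76 (adjusted p = 0.0662 and 0.0775), and leaving out any 1 null clone ended both calls (adjusted p from 0.0513 to 0.0811). The control fall at DIV2 was also lost without clone D3 (adjusted p = 0.0503) or E8 (adjusted p = 0.187), and that at DIV4 without D7 (-0.56, adjusted p = 0.0766) or E8 (adjusted p = 0.107). In null clones the change at DIV2 was -0.72, not called in the fit without a block and called with the clone as a replicate block (adjusted p = 0.0238).

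Ptbp1 (chr10:79854427-79864771, plus strand), the exon repressor, was at 40.1, 22 and 39.5 rescaled TPM in control OPCs D7, D3 and E8, at 17.4, 17.5 and 18 at DIV2, and at 12.9, 15.2 and 12.1 at DIV4. Null clones had 39.9, 26.6 and 26 in OPCs, 18.9, 19.1 and 20 at DIV2, and 18.8, 15.7 and 19.2 at DIV4. OPC values were above all later values in both genotypes, and the lowest of them was control D3, the library low in cycling markers. The log2 change in control clones was -0.86 ± 0.20 (adjusted p = 0.00524, limma) and -1.23 (adjusted p = 0.000569), and without the D3 OPC library -1.13 and -1.51. These falls were rises of 1.80 and 1.40 on deposited TPM, and on protein-coding scaling they were -0.11 and -0.49 and not called. In null clones Ptbp1 fell by 0.62 (adjusted p = 0.0343) and 0.73 (adjusted p = 0.0127). The null fall at DIV2 was lost without any 1 null clone (adjusted p from 0.0928 to 0.312) and that at DIV4 without 3F or D6 (adjusted p = 0.121 and 0.0802). The control fall at DIV2 was lost without D7 or E8 (adjusted p = 0.0638 and 0.0614). The antisense gene Gm17134 overlaps Ptbp1 and was listed at 0.00592 to 21.1 rescaled TPM in control OPCs and at no more than 0.000259 elsewhere. Of the 31-base words of Ptbp1, 27.5% also occur in other genes, read on either strand. How reads were divided between these is not given in the sources used here, so the Ptbp1 level in control OPCs is uncertain.

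Ptbp2 (chr3:119718742-119784466, minus strand), the paralogue known from neurons, was not called in any of the 12 comparisons of the fit without a block. It stood at 15.7, 22.5 and 23.3 rescaled TPM in control OPCs, 16.2, 17 and 20.7 at DIV2, and 13.6, 24.4 and 27 at DIV4. Null clones had 17.8, 26.8 and 24.5 in OPCs, 11.1, 18.9 and 13.4 at DIV2, and 13.5, 19 and 18.9 at DIV4. Stages overlapped in both genotypes, yet each null clone was lower at DIV2 and DIV4 than as OPCs. With the clone as a replicate block the null changes were called, at -0.65 (adjusted p = 0.00603) and -0.40 (adjusted p = 0.0425).

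Hnrnph1 (chr11:50376990-50386528, plus strand) was at 119, 76.8 and 95.6 rescaled TPM in control OPCs, 85, 70.2 and 77.1 at DIV2, and 62.1, 62.3 and 46 at DIV4. Among null clones it was at 136, 143 and 148 in OPCs, 70.1, 84.5 and 87.4 at DIV2, and 75.4, 66.5 and 83.7 at DIV4. In null clones OPC values were well above all later values, and in control clones only DIV4 was clear of the OPC range. The log2 change was -0.31 at DIV2 (adjusted p = 0.171, limma) and -0.76 at DIV4 (adjusted p = 0.00375) in control clones, and -0.82 (adjusted p = 0.00229) and -0.92 (adjusted p = 0.000744) in null clones. Without the D3 OPC library the control change at DIV2 was -0.46 and called (adjusted p = 0.0358). The control fall at DIV4 was a rise of 2.00 on deposited TPM and 0.01 on protein-coding scaling. The null fall at DIV4 was not called after quantile normalization (-0.35, adjusted p = 0.101).

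Hnrnpa2b1 (chr6:51460932-51469894, minus strand) moved much as Hnrnph1 did. Its levels were 61.7, 30.7 and 49.7 rescaled TPM in control OPCs D7, D3 and E8, 37.3, 35.1 and 34 at DIV2, and 24.3, 30.9 and 21.4 at DIV4. Null clones had 73.4, 60.4 and 67.1 in OPCs, 36, 33.1 and 43.2 at DIV2, and 37.8, 24.7 and 36.7 at DIV4. Null OPC values were clear of the later ones, whereas control D3 OPCs (30.7) lay among the later control values. In control clones Hnrnpa2b1 changed by -0.35 at DIV2 (adjusted p = 0.247, limma) and fell by 0.83 at DIV4 (adjusted p = 0.0124), a rise of 1.86 on deposited TPM. In null clones it fell by 0.83 (adjusted p = 0.0133) and 1.02 (adjusted p = 0.00304). Without the D3 OPC library the control changes were -0.63 (adjusted p = 0.02) and -1.10. The control fall at DIV4 was lost without D7 (-0.58, adjusted p = 0.136) or E8 (adjusted p = 0.127), and the null fall at DIV2 without any 1 null clone (adjusted p from 0.0625 to 0.134).

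Hnrnpf (chr6:117900324-117925622, plus strand) is uncertain, because 66.2% of its 31-base words occur in other genes, read on either strand. The pseudogene Gm6430, which shares the most, was at 0.0304 to 1.52 rescaled TPM. Hnrnpf was at 119, 86.8 and 124 in control OPCs, 70.2, 78.7 and 86.7 at DIV2, and 69.9, 72 and 82.9 at DIV4. Null clones had 92, 108 and 85.3 in OPCs, 70.4, 79.6 and 73.3 at DIV2, and 60.2, 65.4 and 62.9 at DIV4. OPC values were the highest of their genotype, though control D3 OPCs (86.8) were level with control E8 at DIV2 (86.7). The falls called were -0.46 (adjusted p = 0.0201, limma) and -0.53 (adjusted p = 0.0111) in control clones and -0.58 at DIV4 in null clones (adjusted p = 0.00552). The control falls were rises of 2.32 and 2.24 on deposited TPM and of 0.30 and 0.23 on protein-coding scaling, and they were lost without D7 (adjusted p = 0.186 and 0.106), the DIV2 one also without E8 (adjusted p = 0.0716). The null change at DIV2 was -0.34, called with the clone as a replicate block (adjusted p = 0.0483), and the null fall at DIV4 was lost without 3F or D6 (adjusted p = 0.0576 and 0.0664) and after quantile normalization (-0.19, adjusted p = 0.366).

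Of the 88 transcripts of the members, 29 transcripts of 7 genes could be tested for their share. Mbnl1 and Ptbp2 each have 1 transcript in the table, against 25 and 13 in M21. Their gene levels are therefore those of 1 model, and no change of share could be seen for them. Besides the Qk pair, 2 of them were called in control clones at DIV2 (4 in all, against 18.3% of all transcripts tested) and 5 at DIV4 (7 in all, against 14.9%). In null clones the Qk pair alone was called, at DIV2 (2 transcripts, against 0.647%) and at DIV4 (2, against 1.86%). The shares of a gene sum to the whole, so calls within 1 gene depend on each other. The Qk pair holds nearly all of its gene, and its 2 calls mirror each other. No member transcript was called between DIV2 and DIV4, where 0.0227% of all transcripts were called in control and 0.0284% in null clones. Unadjusted p values under 0.05 were found for 10 and 11 of the 29 in control clones at DIV2 and DIV4, for 5 and 6 in null clones, and between DIV2 and DIV4 for 0 in control and 1 in null clones. The share of all transcripts under this unadjusted threshold was not counted, so these counts cannot be set against the percentages above.

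In the fit without a block, Hnrnpa2b1 was the only member besides Qk with shares called in control clones at both DIV2 and DIV4. Hnrnpa2b1-203, whose M21 model holds the exon printed above, held 38.9%, 38.7% and 44.2% of the gene in control OPCs, 58.9%, 56.7% and 55.9% at DIV2, and 54.6%, 64.6% and 58.7% at DIV4. The null clones had 69.8%, 44.7% and 57.2% in OPCs, 57.1%, 56.2% and 58.9% at DIV2, and 57.1%, 55.4% and 58.4% at DIV4. Control OPCs were below every later library, and the null OPC libraries spread on both sides of the later values. Hnrnpa2b1-202, whose M21 model lacks the exon, held 50.7%, 47% and 41.8% in control OPCs and 18.3%, 37.7% and 23.3% in null OPCs.

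In control clones Hnrnpa2b1-203 gained 16.6 ± 4.88 points at DIV2 (adjusted p = 0.0286, limma) and 18.7 at DIV4 (adjusted p = 0.0189), and Hnrnpa2b1-202 lost 19.4 (adjusted p = 0.0101) and 18.9 (adjusted p = 0.0143). In null clones the changes were 0.161 and -0.24 points for Hnrnpa2b1-203 and were not called. These shares moved with the noncoding load: Hnrnpa2b1-203 was at 38.7% to 44.7% in the 4 libraries with over 30% of TPM in the 3 noncoding features, null D6 OPCs among them, and at 54.6% to 69.8% in the other 14. Hnrnpa2b1-202 was at 37.7% to 50.7% in the former and 18.3% to 32.4% in the latter. The part of the load in these differences was not tested. The Hnrnpa2b1-203 calls were lost without any 1 control clone or null 7F (adjusted p from 0.0669 to 0.15 at DIV2 and from 0.0508 to 0.116 at DIV4). The Hnrnpa2b1-202 call was lost at DIV2 without D7 (-14.6, adjusted p = 0.124) and at DIV4 without D7 or D3 (adjusted p = 0.0799 and 0.0653).

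The remaining share calls in control clones were at DIV4. Hnrnph1-207, a noncoding processed transcript, rose from 6.11%, 0.0557% and 0.386% in OPCs D7, D3 and E8 to a mean of 10.8% ± 1.9 (SD, n = 3), a gain of 8.63 points (adjusted p = 0.0163, limma). Its share also moved with the noncoding load: it was 0.0557% to 6.11% in the 4 libraries above 30%, null D6 OPCs among them, and 7.05% to 12.7% in the other 14, and the part of the load was not tested. Hnrnpf-209, which has the same 415 codons as Hnrnpf-201 in M21, rose from 5.21% ± 2.16 to 11.3% ± 1.8 (SD, n = 3), a gain of 6.14 points (adjusted p = 0.0488; 0.079 with the clone as a replicate block). Celf2-226 fell from 9.31% ± 1.39 to 4.46% ± 0.614 (SD, n = 3), a loss of 4.84 points (adjusted p = 0.0371, and 0.068 with the block). In these control OPC libraries the whole of Celf2 was at 0.979 to 2.8 deposited TPM, so the OPC shares rest on low levels. Hnrnph1-207 was not called without clone D3 or E8 (adjusted p = 0.0856 and 0.076) or the D7 DIV4 library (7.7 points, adjusted p = 0.0576). Hnrnpf-209 was not called without control D7 (4.43 points) or E8 or any 1 null clone (adjusted p from 0.0657 to 0.263), nor Celf2-226 without any 1 clone of the 6 (adjusted p from 0.0523 to 0.15). With the replicate block, Hnrnph1-207 was also called at DIV2 (6.17 points, adjusted p = 0.0483).

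**Figure D4:**
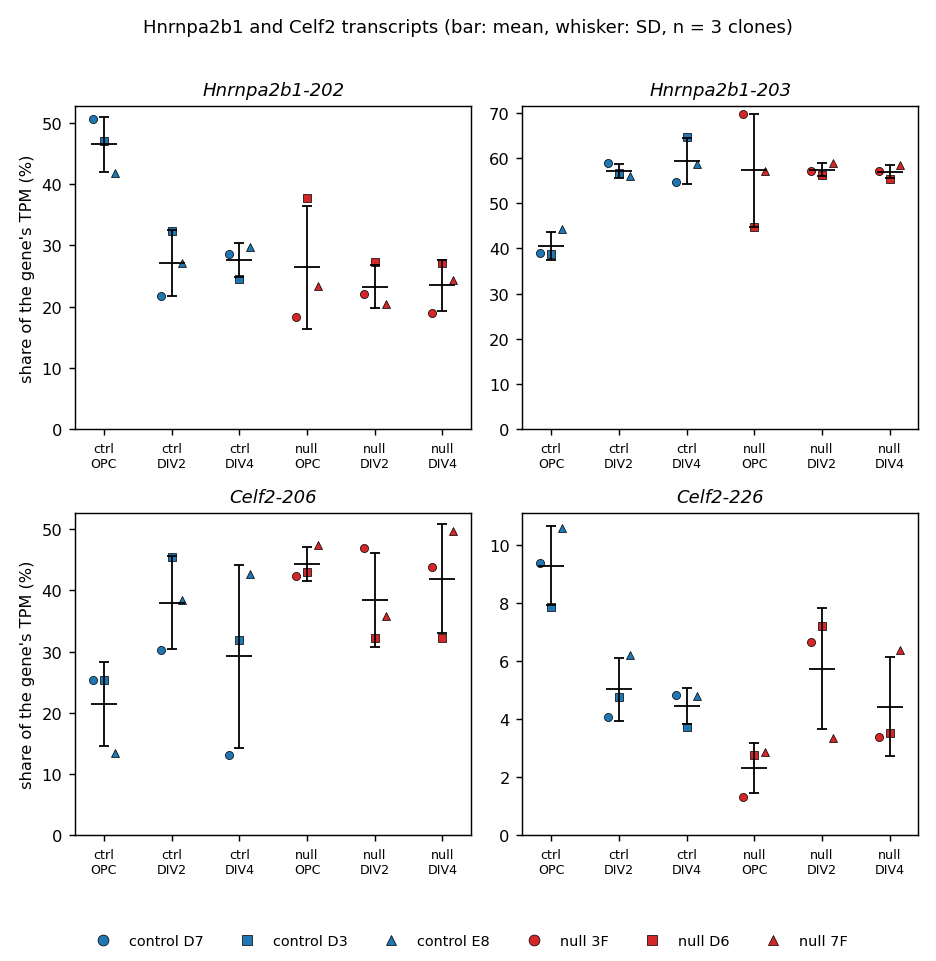
Share of the gene's TPM in percent (vertical axis) of member transcripts other than those of Qk, with 1 symbol per clone and the mean ± SD of 3 clones in each genotype and stage. Hnrnpa2b1-203 lies at 38.7% to 44.2% in control OPCs and at 54.6% or above in all later libraries.

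The other main transcripts of the members showed no called change of share in the fit over all 18 libraries. Mbnl2-202 held 38.1% ± 6.65 in null OPCs and 57.4% ± 2.78 at null DIV4 (SD, n = 3), a difference of 19.3 points whose groups did not overlap and whose adjusted p was 0.154 (limma). Hnrnpf-201 held 53.7% to 75.8% of its gene in all 18 libraries, and Hnrnph1-201 held 35.1% to 45.8% in the group means. Over the 18 libraries Hnrnph1-212 held 5.44% to 16.6%, Mbnl2-201 40.4% to 72.7% and Hnrnpa2b1-201 10.4% to 23.9%. Ptbp1-216, the transcript with 555 codons, held 28.1% to 37.1% in the group means. Ptbp1-201 went from 22.1% ± 3.15 in control OPCs to 12.8% ± 1.04 at DIV4 (SD, n = 3; adjusted p = 0.0757), a change called without the control D3 OPC library (-11.1 points, adjusted p = 0.0444). Ptbp1-202 held 10.8% to 24.1% and Ptbp1-206 5.7% to 19.4%. The 4 transcripts of Rbfox2 were too low to test, and in the group means Rbfox2-203 held 29.8% to 39.8%, Rbfox2-202 21.8% to 25.5%, Rbfox2-204 21.2% to 26.6% and Rbfox2-201 14.2% to 21.5%.

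Thap1 null and control clones were compared next at each stage. Most members did not pass the test. In OPCs 1 member was called, Hnrnph1, where 11.9% of all genes were called; at DIV2 none was, where 2.83% were; and at DIV4 1 was, Mbnl1, where 5.06% were. No member had an unadjusted p under 0.05 at DIV2. In OPCs, Mbnl2 and Hnrnpa2b1 had one without passing the adjusted threshold, as did Hnrnph1 at DIV4. Markers of cell state differed between genotypes too. In OPCs Cspg4, the 1 called of 6 OPC markers, was lower in null clones (-1.41, adjusted p = 0.0344, limma), as was Tubb3, the 1 called of 2 neuronal markers tested (-1.07, adjusted p = 0.0442), while on deposited TPM both were higher (0.54 and 0.79) and not called. At DIV2 the myelin gene Mobp was already lower (-3.55, adjusted p = 0.0214, limma), at 1.1 ± 0.904 against 22.4 ± 3.11 rescaled TPM (SD, n = 3). At DIV4 Mobp was lower (-5.52, adjusted p = 0.000879), at 2.38 ± 3.91 against 169 ± 211 rescaled TPM (SD, n = 3). Olig1, the 1 called of 6 OPC markers, was lower too (-1.68, adjusted p = 0.0181). P2ry12, the 1 of 5 microglial markers abundant enough to test, was higher at DIV4 (1.14, adjusted p = 0.0162), at 3.19 ± 1.11 against 0.856 ± 0.138 rescaled TPM (SD, n = 3). On deposited TPM the differences of Olig1 (-1.84, adjusted p = 0.101) and P2ry12 (1.16, adjusted p = 0.0721) were not called. Of the 8 oligodendrocyte markers 1 was called at DIV2 and 1 at DIV4. The part of these differences in those of the members was not tested. On deposited TPM all 10 members were called higher in null OPCs, where the median gene was higher by 1.5 (log2), and 4 were with protein-coding scaling (0.36).

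Hnrnph1 was higher in null OPCs (143 ± 5.79 rescaled TPM) than in control OPCs (97.2 ± 21.3; SD, n = 3), with no overlap between clones. The log2 difference was 0.57 ± 0.17 (adjusted p = 0.0387, limma). Without control D3 OPCs it was 0.41 (adjusted p = 0.0956), and leaving out clone E8 or any 1 null clone also ended the call (adjusted p from 0.0926 to 0.186), as did quantile normalization (0.28, adjusted p = 0.242). Of 12 SR protein genes, Srsf3 (0.59, adjusted p = 0.0477) and Srsf5 (0.58, adjusted p = 0.0312) were called higher in null OPCs, where 11.9% of all genes were called, and neither was after quantile normalization (adjusted p = 0.384 and 0.239). Other regulators were called lower there or not at all. Of 8 paralogues of the members tested, Hnrnpa0 was lower (-0.55, adjusted p = 0.036, limma). Msi1, of 15 other tissue-restricted RNA-binding regulators tested, was lower too (-1.07, adjusted p = 0.0337, limma). Of 15 further hnRNP genes 0 were called. At DIV2 the difference of Hnrnph1 was 0.06 (adjusted p = 0.935), and at DIV4 it was 0.41 (adjusted p = 0.177) with the 2 genotypes' clones apart.

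Mbnl1 was higher in null than in control clones at DIV4, at 15.6 ± 1.05 against 9.54 ± 3.04 rescaled TPM (SD, n = 3), with no overlap. The log2 difference was 0.69 ± 0.19 (adjusted p = 0.0453, limma). It was 0.48 without the control D7 DIV4 library (adjusted p = 0.124), the library high in myelin genes, and the call was also lost without control E8 or any 1 null clone (adjusted p from 0.115 to 0.256) and with a pseudocount of 0.1 (adjusted p = 0.0515). It was 0.55 on deposited TPM (adjusted p = 0.626) and 0.80 with protein-coding scaling (adjusted p = 0.0622).

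Mbnl2 was at 11.2 ± 2.43 rescaled TPM in null OPCs and 6.63 ± 2.64 in control OPCs (SD, n = 3). The clones did not overlap, and the difference of 0.72 ± 0.29 was not called (adjusted p = 0.123, limma). Hnrnpa2b1 was at 67 ± 6.5 and 47.4 ± 15.6 (0.54 ± 0.22, adjusted p = 0.129). Qk differed by 0.14 in OPCs, -0.22 at DIV2 and -0.06 at DIV4, each with an SE of 0.19 and none called.

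**Figure D5:**
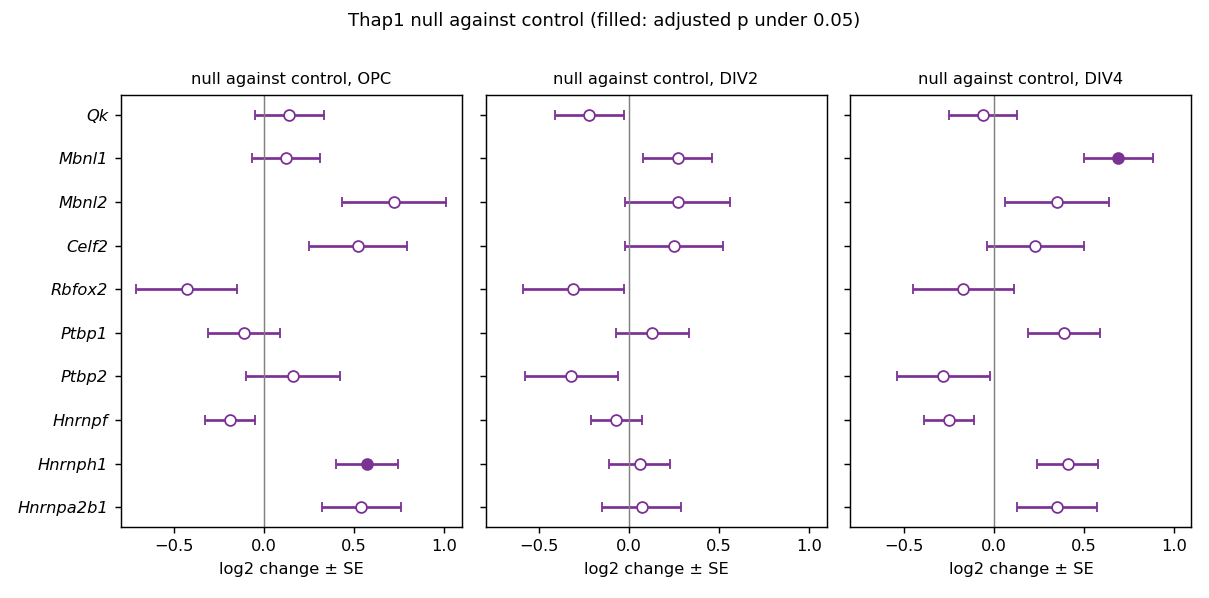
Log2 difference ± SE (horizontal axis) between Thap1 null and control clones for each regulator in OPCs, at DIV2 and at DIV4, on rescaled TPM; filled symbols have an adjusted p under 0.05 (limma). Only Hnrnph1 in OPCs (0.57) and Mbnl1 at DIV4 (0.69) are filled; on deposited TPM all 10 are higher in null OPCs and none is called at DIV4.

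Between genotypes, 4 of 29 transcript shares of the members were called in OPCs, against 12.4% of all transcripts tested. At DIV2 and DIV4 none was called, where 0.119% and 0.238% of all transcripts were and 1 of the 29 had an unadjusted p under 0.05 at each time. Hnrnpa2b1-203 was higher by 16.6 points in null OPCs (adjusted p = 0.0366, limma) and Hnrnpa2b1-202 lower by 20.1 points (-20.1, adjusted p = 0.0121), and null D6, with 34.8% of TPM in the noncoding features, was the null clone nearest to the controls in both. Without null 3F they were 10.3 (adjusted p = 0.232) and -16.1 points (adjusted p = 0.0965); without 7F or, for Hnrnpa2b1-203, any 1 control clone, they were not called either (adjusted p from 0.0728 to 0.151).

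Celf2 shares also differed in OPCs, but those of the control OPCs rest on low levels. Celf2 was at 2.8, 1.76 and 0.979 deposited TPM in control OPCs D7, D3 and E8. In null OPCs 3F, D6 and 7F it was at 23.4, 7.34 and 8.5. The gene met the limit of 5 TPM for share tests as a mean over the 18 libraries (7.37), and each control OPC library lay below that limit. Celf2-206 (526 codons) held 25.4%, 25.4% and 13.5% of the gene in control OPCs and 42.4%, 43% and 47.5% in null OPCs, a difference of 22.9 ± 6.86 points (adjusted p = 0.0401, limma). Celf2-226 (472 codons) held 9.4%, 7.88% and 10.6% against 1.31%, 2.77% and 2.87%, a difference of -6.99 ± 1.47 points (adjusted p = 0.00758). Neither pair of groups overlapped, and null D6 OPCs, with 34.8% of TPM in the noncoding features, lay with the other null clones here. The load was 64.8% to 88% in the control OPCs, and its part in the Celf2 shares was not tested. Celf2-206 was not called without control E8 (18.9 points, adjusted p = 0.117) or any 1 null clone (adjusted p from 0.0869 to 0.161), nor was Celf2-226 without null 3F (adjusted p = 0.0654). Qk-201 differed by 4.43 points in OPCs (adjusted p = 0.381), and its largest difference later was -2.75 points at DIV4.

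Whether the change with stage differed between genotypes was tested as an interaction. None of the 10 members was called for DIV2 against OPC (0.411% of all genes were), DIV4 against DIV2 (0.0233%) or DIV4 against OPC (3.07%). The unadjusted p was under 0.05 for Hnrnph1 at DIV2 (-0.51, adjusted p = 0.347, limma) and Mbnl1 at DIV4 (0.57, adjusted p = 0.243), and for none in the comparison of DIV4 with DIV2. Without clone D3 the DIV4 interaction was called for Ptbp1 (0.87, adjusted p = 0.0396) and Mbnl1 (0.84, adjusted p = 0.0449). On deposited TPM 10 and 9 members were called negative at DIV2 and DIV4. On that scale the median gene moved by more in control than in null clones at both times. How many of all genes were called in these fits is not given here, so the member counts have no background beside them. No member transcript share was called, where 1.49%, 0.034% and 1.05% of all transcripts were, and 4, 1 and 6 of the 29 had an unadjusted p under 0.05. How many of all transcripts had an unadjusted p under 0.05 was not counted. For Qk-201 the null gain was smaller than the control gain by 5.59 points at DIV2 (-5.59, adjusted p = 0.556) and 7.17 at DIV4 (-7.17, adjusted p = 0.436).

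Other splicing regulators gave the setting of these changes. Of 15 further hnRNP genes, 10 fell and none rose in control clones at DIV4 against OPCs, and 12 fell and none rose in null clones, with medians of -0.56 and -0.55; in these comparisons 31.6% and 32.8% of all genes were called in either direction. Among them Hnrnpab fell by 1.25 in control clones (adjusted p = 0.0032, limma), a rise of 1.51 on deposited TPM, and Hnrnpdl fell by 1.29 in null clones (adjusted p = 7.23e-05). Of 12 SR protein genes, which encode activators of exon inclusion, 7 fell and none rose in each genotype at DIV4, with medians of -0.53 and -0.67; Srsf3 fell by 1.55 in null clones (adjusted p = 3.08e-05). On deposited TPM and protein-coding scaling the control medians of both lists were above 0 (1.95 and 0.21 for hnRNP, 2.08 and 0.22 for SR), and the null medians were below 0 on both (-0.07 and -0.14 for hnRNP, -0.18 and -0.25 for SR).

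Of 14 paralogues of the members, 8 were abundant enough to test. Hnrnpa1, which shares many targets with Hnrnpa2b1, fell by 1.63 in control clones (adjusted p = 7.97e-05, limma), a rise of 1.15 on deposited TPM, and by 2.08 in null clones (adjusted p = 7.44e-06) at DIV4. Ptbp3 rose in control clones at DIV2 (0.93, adjusted p = 0.00181). Celf4 was higher in null than in control clones at DIV2 (4.76 ± 1.94 against 0.385 ± 0.221 rescaled TPM; SD, n = 3; 2.01, adjusted p = 0.00072) and DIV4 (1.05, adjusted p = 0.0415; 0.145 on deposited TPM).

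Of 22 other tissue-restricted RNA-binding regulators, 15 were tested. At DIV4, 1 rose and 5 fell in control clones (12 rose and none fell on deposited TPM), and 2 rose and 7 fell in null clones. These counts of 15 tested stand beside the 31.6% and 32.8% of all genes called in control and null clones. Elavl3, a neuronal RNA-stabilizing protein gene, rose by 1.26 in control (adjusted p = 0.00618, limma) and 1.16 in null clones (adjusted p = 0.00831). Khdrbs3, of the same STAR family as Qk, fell by 1.91 (adjusted p = 0.000188; 0.75 higher on deposited TPM) and 1.49 (adjusted p = 0.000721). Nova1, a neuronal splicing regulator gene, fell by 2.10 in null clones (adjusted p = 0.000494).

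Transcripts of 7 genes whose splicing these proteins are known to regulate were read the same way, and 14 transcripts of 6 genes could be tested. In control clones 4 rose and 1 fell at DIV2, where 18.3% of all transcripts were called, and 3 rose and 1 fell at DIV4, where 14.9% were. In null clones 1 rose and 1 fell at each time, where 0.647% and 1.86% of all transcripts were called. None was called between genotypes at any stage, and in OPCs 1 had an unadjusted p under 0.05.

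Nfasc-202 (1240 codons), a transcript of the neurofascin gene, held 17.7%, 24.3% and 23.3% of the gene in control OPCs and 3.47% to 6.3% in the later control libraries. Its level was low in control OPCs, at 0.462, 1.96 and 1.04 rescaled TPM. It lost 17.5 and 16.6 points (adjusted p = 0.000166 and 0.000264, limma) in control and 11.9 and 10.6 points in null clones (adjusted p = 0.013 and 0.0168). Nfasc-201 (1157 codons) gained 23.1 and 25.5 points in control clones (adjusted p = 0.00668 and 0.0048) and 24.1 points at DIV2 in null clones (adjusted p = 0.0437). OPC and later libraries did not overlap in either transcript. The codon numbers are those of M21, where Nfasc-201 has 5072 bases against 9630 in the table. Mbp-211, a transcript of the myelin basic protein gene, gained 33.4 points at DIV4 in control (adjusted p = 0.00173) and 26.7 in null clones (adjusted p = 0.0238), and 23.9 points at DIV2 in control clones (adjusted p = 0.0096). In control OPCs D7, D3 and E8 it held 13.9%, 34.9% and 7.79% of the gene, at 1.03, 31.2 and 0.374 rescaled TPM. In null OPCs 3F, D6 and 7F it was at 1.18, 8.17 and 0.998. Most OPC shares of Mbp thus rest on low levels. Mbp-212 gained 11.9 points at DIV2 (adjusted p = 0.00444) and 12.7 at DIV4 (adjusted p = 0.00387) in control clones, and Mbp-207 gained 7.62 at DIV2 (adjusted p = 0.00964). Nfasc-203, at 33.8% to 46.5% in the group means, and Mbp-203, at 5.29% to 13.2%, had no call. Models differed here too: Nfasc-203, Mbp-203 and Mbp-207 have 9580, 2075 and 2108 bases in the table and 3903, 354 and 432 in M21.

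Mag-201 was the whole of its gene in the table. Main transcripts of 3 other target genes had no called change of share. Over the 18 libraries Pkm-201 held 88.2% to 95.8%, Bin1-202 89% to 96.2% and Mapt-204 69.3% to 90.1%. Total Mapt was higher in null clones at DIV2 (2.38, adjusted p = 7.69e-05, limma) and DIV4 (1.37, adjusted p = 0.00723; 0.169 on deposited TPM).

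The genes most like each member in pattern were found by Pearson's r of log2(rescaled TPM + 1) over the 18 libraries, among 8183 genes, as a description. Libraries of a stage and clone share much else, so r is high for many genes. Qk was most like Zyg11b (0.967), Dock4 (0.966) and Exoc6b (0.964), and Mbnl2 most like Serinc3 (0.976), Prickle1 and Clcn3 (both 0.967). Hnrnph1 and Hnrnpa2b1 were each other's nearest gene (0.949). Hnrnpf was most like Ube2v1 (0.959), Ybx1 (0.945) and Stip1 (0.939). Ptbp1 was nearest to Ttll4 (0.954), Celf2 to Tbl1x (0.944), Rbfox2 to Bai3 (0.937) and Mbnl1 to Eprs (0.896). Ptbp2 had the weakest likeness, with Slc8a1 at 0.812.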

How the data were processed

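Ribosomal RNA was removed and stranded libraries of total RNA were prepared, per the labels' protocols. The authors deposited TPM, 1 value per Ensembl transcript and library, each library summing to 1000000; the submitters' processing notes name STAR, Picard and mm10, and the quantifier and annotation are not given in the sources used here. Depth is unknown, so no counting error is given. Transcript TPM was summed by gene symbol (25 date-like names were restored), divided by median-of-ratios factors (7757 genes averaging 5 TPM or more), and tested as log2(value + 1) with limma 3.58.1 in R 4.3.3: 12894 genes averaging 1 TPM or more, 1 mean per group over all 18 libraries, eBayes with trend, Benjamini-Hochberg adjustment. On this scale changes of low genes are understated. Shares (percent of the gene's TPM) were tested likewise for 17624 transcripts with mean shares of 5% to 95%, in genes averaging 5 TPM or more. Percentages of all genes or transcripts refer to the adjusted threshold only. The fits were tested on simulated data.

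Same-numbered samples are the same clone at 3 stages, from the labels; deviations of the same clone correlated at 0.12 on average (-0.0119 to 0.411) and those of different clones at -0.0597. The clone block is an alternative, as are other scalings, pseudocounts, filters, fits on the groups compared, and leaving out each clone. Members and lists were chosen with earlier results of these data known. All members are named, and transcripts with a mean share of at least 10% or a call; from each other list at most the 2 largest called changes each way per comparison, Thap1 as the label check, and the 3 nearest genes by r. Annotation and sequences are from GENCODE M21 (GRCm38), which holds 96.6% of the transcript identifiers and may differ from the authors' models. 1 gene of the target list is not reported by name here. Python 3.11.15 made tables and plots.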

Additional observations from a re-analysis of the deposited data

Results flagged for a closer look

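In 4 cases all control clones changed 1 way with stage and all null clones the other way. How often this pattern occurs over all transcripts or genes was not counted, and the Celf2-226 cases rest on the same OPC libraries. The Celf2-226 share changed by -4.27 points in control and 3.43 points in null clones from OPC to DIV2, and by -4.84 and 2.12 points from OPC to DIV4. The interaction was 7.7 points (adjusted p = 0.077, limma) and 6.96 points (adjusted p = 0.108), and without the control D3 OPC library it was called at 8.42 (adjusted p = 0.0249) and 7.68 points (adjusted p = 0.0395). Celf2-226 is a minor transcript, at 0.106 to 0.934 rescaled TPM over the 18 libraries. The Hnrnpf-201 share changed by 6.92 points in control and -6.41 in null clones from OPC to DIV2 (interaction -13.3, adjusted p = 0.305). The Hnrnph1-207 share changed by 2.46 points in control and -1.98 in null clones from DIV2 to DIV4 (interaction -4.44, adjusted p = 1).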

How the results depend on the processing

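On TPM as deposited, the sign turned for 23 member values called on at least 1 of the scales. In OPCs, null against control became 1.91 for Ptbp1, 1.03 for Rbfox2 and 1.92 for Hnrnpf. For control DIV2 against OPC the values were 1.80 (Ptbp1), 2.41 (Ptbp2), 2.04 (Mbnl1), 1.08 (Rbfox2), 1.10 (Celf2), 2.32 (Hnrnpf), 2.47 (Hnrnph1) and 2.36 (Hnrnpa2b1). For control DIV4 against OPC they were 1.40 (Ptbp1), 1.16 (Rbfox2), 1.79 (Celf2), 2.24 (Hnrnpf), 2.00 (Hnrnph1) and 1.86 (Hnrnpa2b1). The interaction at DIV2 became -1.95 (Ptbp1), -1.71 (Mbnl1), -1.5 (Rbfox2) and -2.17 (Hnrnpf), and at DIV4 -1.66 (Ptbp1) and -1.28 (Mbnl1). Scaling to the protein-coding total turned Hnrnpf (0.30 and 0.23) and Hnrnph1 (0.01 at DIV4) in control clones.

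Members called on deposited TPM were 10 for null against control in OPCs and 0 at DIV4, 10 for control DIV2 against OPC, 2 and 3 for null DIV2 and DIV4 against OPC, and 10 and 9 for the interactions at DIV2 and DIV4. With protein-coding scaling they were 4 in OPCs and 0 at DIV4 between genotypes, 2 and 4 in control clones, and 3 and 3 in null clones. Quantile normalization gave 0 in OPCs and 2 at DIV4 between genotypes, and 1 for null DIV4 against DIV2. Without a filter there were 0 in OPCs and 0 at DIV4 between genotypes, and at DIV4 also 0 with a pseudocount of 0.1 and 0 without the trend. A mean of at least 5 TPM gave 1 for null DIV4 against DIV2. With only the groups compared the counts were 0 in OPCs and 0 at DIV4 between genotypes, 0 for control DIV4 against OPC and 1 for null DIV4 against DIV2. Leaving out the library control D3 OPC, after its values were seen, gave 0 between genotypes in OPCs. It also gave 1 for null DIV4 against DIV2 and 1 for the DIV4 interaction. Leaving out control D7 DIV4 gave 0 between genotypes at DIV4 and 1 for null DIV4 against DIV2. Counts of all genes called are not given here for the interactions, filters, pseudocount, trend, groups compared or left-out libraries.

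For all genes, control DIV2 against OPC was called higher for 1969 and lower for 2426, against 10713 and 72 on deposited TPM and 5680 and 591 on protein-coding scaling. At DIV4 the numbers were 1982 and 2090, 11335 and 29, and 6136 and 382. In null clones they were 1614 and 1924, 1845 and 452, and 2344 and 965 at DIV2, and 2067 and 2161, 2342 and 570, and 3962 and 1062 at DIV4. Between genotypes in OPCs they were 745 and 790, 10407 and 39, 2625 and 184, and 597 and 1018 after quantile normalization. At DIV4 they were 340 and 313, 115 and 243, and 354 and 215. In OPCs the median gene moved by 0.03 on rescaled TPM, 1.5 on deposited TPM and 0.36 on protein-coding scaling.

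Member transcript shares called between genotypes in OPCs were 2 with genes of at least 10 TPM and 14 with shares of 1% to 99%. With only the groups compared there were 0. Of all transcripts, 799 were called higher and 839 lower of 11142 in the first setting. In the second setting these numbers were 1204 and 1952 of 30414, and in the third 4 and 3 of 17624. How many member transcripts were tested in each of these settings is not given here. Control DIV2 against OPC gave 8 member shares with shares of 1% to 99%, 7 with protein-coding transcripts alone and 0 with only the groups compared. Of all transcripts, 1629 rose and 2689 fell of 30414, 1335 and 1478 of 9944, and 136 and 55 of 17624 in these settings. Control DIV4 against OPC gave 0 member shares with only the groups compared, where 2 rose and 0 fell of 17624. Without control D7 DIV4 it gave 4, where 926 rose and 957 fell. Null DIV2 against OPC gave 0 with only the groups compared, where 27 rose and 24 fell of all 17624 transcripts. The DIV2 interaction gave 1 with protein-coding transcripts alone, where 223 were positive and 182 negative of all 9944. Both interactions against OPC gave 1 without control D3 OPC. Of all 17624 transcripts, 784 were then positive and 627 negative at DIV2, and 723 and 600 at DIV4. No share with a call changed sign.

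Leaving out each clone in turn, the members called ranged from 0 to 3 between genotypes in OPCs, 0 to 0 at DIV2 and 0 to 1 at DIV4, from 3 to 6 and 3 to 7 for control DIV2 and DIV4 against OPC, and from 3 to 8 and 3 to 9 in null clones. They ranged from 0 to 0 (control) and 0 to 1 (null) for DIV4 against DIV2, and from 0 to 0, 0 to 0 and 0 to 2 for the interactions. The counts of all genes called in these fits are not given here. Shares called ranged from 0 to 4 between genotypes in OPCs, from 2 to 4 and 3 to 5 in control clones, from 0 to 2 and 0 to 2 in null clones, and were 0 in all other comparisons. The calls among all 17624 transcripts ranged too. In OPCs 302 were higher and 300 lower in null clones without 7F, and 1583 and 1689 without D3. For null DIV2 against OPC 1 rose and 3 fell without 7F, and 88 and 92 without E8.

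Since the same clones were sampled at each stage, the clone was also fitted as a replicate block. It made Mbnl1 1 call for null DIV4 against DIV2; 90 of 99 member values kept their side of the threshold, 6 gained a call and 3 lost it, all given with the results. Depth, which TPM does not keep, limits what can be said of Rbfox2, Celf2 and minor transcripts.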
